A study of Mus musculus with 4 samples.

Results

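CTCF peaks at CpG-poor coding promoters are described here: 1494 peak summits in mouse heart that lie within 1 kb of a protein-coding transcription start site (TSS) in sequence with few CpG dinucleotides. They were taken from the conservative peak list of both pools, on autosomes, where the ratio of observed to expected CpG in the sequence from 500 bases before to 500 bases after the summit was under 0.4. They made up 19.8% (95% interval 18.9 to 20.7) of the 7553 autosomal summits at coding promoters, and the other 6059 summits, with a ratio of at least 0.4, served for comparison. The whole conservative list held 52835 autosomal summits.

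The data come from chromatin immunoprecipitation with an antibody to CTCF, followed by sequencing, from heart tissue of female B6CASTF1/J mice aged 2 months. These mice are first-generation hybrids of C57BL/6J and CAST/EiJ, and the mm10 sequence read here is that of C57BL/6J, so differences carried by the CAST/EiJ chromosomes were not read. There were 2 pools, G and H, each of 2 heart biosamples and each sequenced as 2 technical libraries; no other treatment, genotype or tissue was included. Sequencing depth is unknown, since no read totals accompany the lists. Whole heart holds several cell types, so a site bound in few cells and a site bound weakly in many cannot be told apart.

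CTCF is a zinc-finger protein that binds a long DNA motif and, with the cohesin ring, marks the ends of chromatin loops. Most vertebrate promoters, above all those of genes that are active in every cell, lie in CpG islands, where CpG is kept because it is unmethylated. CpG-poor promoters are typical of genes used in particular tissues, and methylation of a CpG inside the CTCF motif is known to weaken binding. In the mouse, short interspersed repeats of the B2 family are known to have spread copies of the motif.

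The 12-base CTCF core consensus was searched in both strands within 100 bp of each summit, with up to 1 mismatch allowed. The sequences of the 6 strongest CpG-poor summits that have it are printed because they show what a match at a strong summit looks like. Each is read from mm10 on the strand of the core, with 20 bases on either side, and the capitals mark the core.
Rbfox3, chr11:118508053-118508104, + strand: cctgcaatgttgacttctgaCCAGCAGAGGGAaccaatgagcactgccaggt
Lgi4, chr7:31059225-31059276, + strand: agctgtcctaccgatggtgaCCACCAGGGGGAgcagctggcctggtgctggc
Top1mt, chr15:75679441-75679492, - strand: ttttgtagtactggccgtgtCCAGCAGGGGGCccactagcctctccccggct
Cog1, chr11:113648338-113648389, + strand: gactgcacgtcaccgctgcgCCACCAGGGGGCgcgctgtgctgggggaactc
Gse1, chr8:120535096-120535147, - strand: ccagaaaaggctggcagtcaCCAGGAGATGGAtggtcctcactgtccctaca
P2ry6, chr7:100965282-100965333, - strand: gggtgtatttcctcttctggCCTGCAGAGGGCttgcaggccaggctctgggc
The cores at Top1mt and Cog1 had 0 mismatches, and those at Rbfox3, Lgi4, Gse1 and P2ry6 had 1 each. The Gse1 core, from 120535116 to 120535127, lay well away from its summit at 120535186. The median distance of cores from CpG-poor summits was 7.50 bp. Whether the Gse1 core is a background match was not tested.

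The 2 strongest CpG-poor summits in which no core was found are shown for contrast, from 50 bases before to 50 bases after the summit on the + strand of mm10.
Vps13d, chr4:145156094-145156194: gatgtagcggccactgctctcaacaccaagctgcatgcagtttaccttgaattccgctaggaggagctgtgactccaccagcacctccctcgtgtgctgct
Cdh23, chr10:60697140-60697240: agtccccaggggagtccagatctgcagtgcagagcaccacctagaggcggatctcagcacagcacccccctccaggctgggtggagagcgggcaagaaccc
That these letters hold no match says nothing about which form of the motif CTCF may use there.

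The strongest CpG-poor summits lay near TSSs of genes of very different roles. Each is named by its nearest coding TSS, which need not be the first TSS of the gene. The summits of Rbfox3, Cog1, Gse1, P2ry6, C2cd3 and Arhgef2 were upstream of that TSS and yet in introns of annotated genes. That of Vps13d, also upstream, was in a coding exon. The signal, a score per peak that the authors deposited without a stated unit, reached 862 at Rbfox3, which encodes a splicing regulator of neurons, with 455 in pool G and 409 in pool H. It was 856 at Vps13d, a lipid transfer protein of organelle contacts, with 452 in pool G and 408 in pool H. Lgi4, a secreted factor needed to myelinate peripheral nerves, had 847, with 449 in pool G and 404 in pool H. Each pool has its own scale, and the matched calls of both pools place these summits near their top. In the thresholded lists of the single pools, Vps13d was in both, Rbfox3 in that of pool G only and Lgi4 in neither. Top1mt, the mitochondrial topoisomerase, had 846, and Cog1, a Golgi tethering subunit, had 842. Irf9 and Gbp3, both of interferon signalling, had 811 and 815. A further 11 of the 20 strongest were Gse1, P2ry6, Cdh23, C2cd3, 1700125H20Rik, Cln6, Tex22, BB014433, Pdzd9, Tnk2 and Arhgef2, and all 20 lay between 807 and 862.

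Of these 20 summits, 15 had the core, 1 lay in soft-masked (repeat) sequence and 12 were more than 500 bp from the TSS. At 15 of the 20 the TSS itself was CpG-poor, while the TSSs of Cog1 and Gse1 had ratios of 0.699 and 0.768 although their summits had 0.379 and 0.226. In the 15 with a core, 9 cores ran in the direction of the gene. At the lower end, the weakest summits were those of Gm6569 (10.8), Lsm2 (12.3), Rpp40 (15.1), Ppp1r13l (16.1) and Macf1 (16.2), each within 230 bp of another summit. Near the threshold, the CpG-poor summits of Ppfia3 and Gprin3 both had a ratio of 0.3995 and had signals of 129 and 144. Just above it, the summits of Tm7sf2, Aadat and Sgms1 had ratios of 0.4004, 0.4005 and 0.4006 and signals of 704, 609 and 92.4.

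CpG-poor promoter summits carried the CTCF core far more often than the rest. The core was found at 896 of 1494 CpG-poor summits, 60.0% (57.4 to 62.5), and at 1638 of 6059 other summits, 27.0% (25.9 to 28.2). The difference was 32.9 percentage points (30.2 to 35.6). In windows 1 kb away the core stood at 5.69% of CpG-poor and 5.15% of other summits, a difference of 0.540 points (-0.675 to 1.94), so the excess was at the summit and not 1 kb away. These windows were taken only towards higher coordinates and were not matched to the base composition at the summits. What composition alone gives at the summits was not tested. In the pool G list the shares were 58.2% at CpG-poor and 25.4% at other summits, and in the pool H list 60.1% and 27.2%. Intervals are 95% limits of counting error over peaks, which are not replicates, and a difference is called where its interval leaves out 0.

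The share with the core changed step by step with the CpG ratio. It was 71.2% (57.9 to 82.2) in the 59 summits with a ratio under 0.1, 53.4% between 0.3 and 0.4, and 43.5% between 0.4 and 0.5. It fell further to 17.8% (12.4 to 24.3) in the 174 summits with a ratio of 1 or more. The boundary at 0.4 therefore lies within a slope and not at a break.

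**Figure D1:**
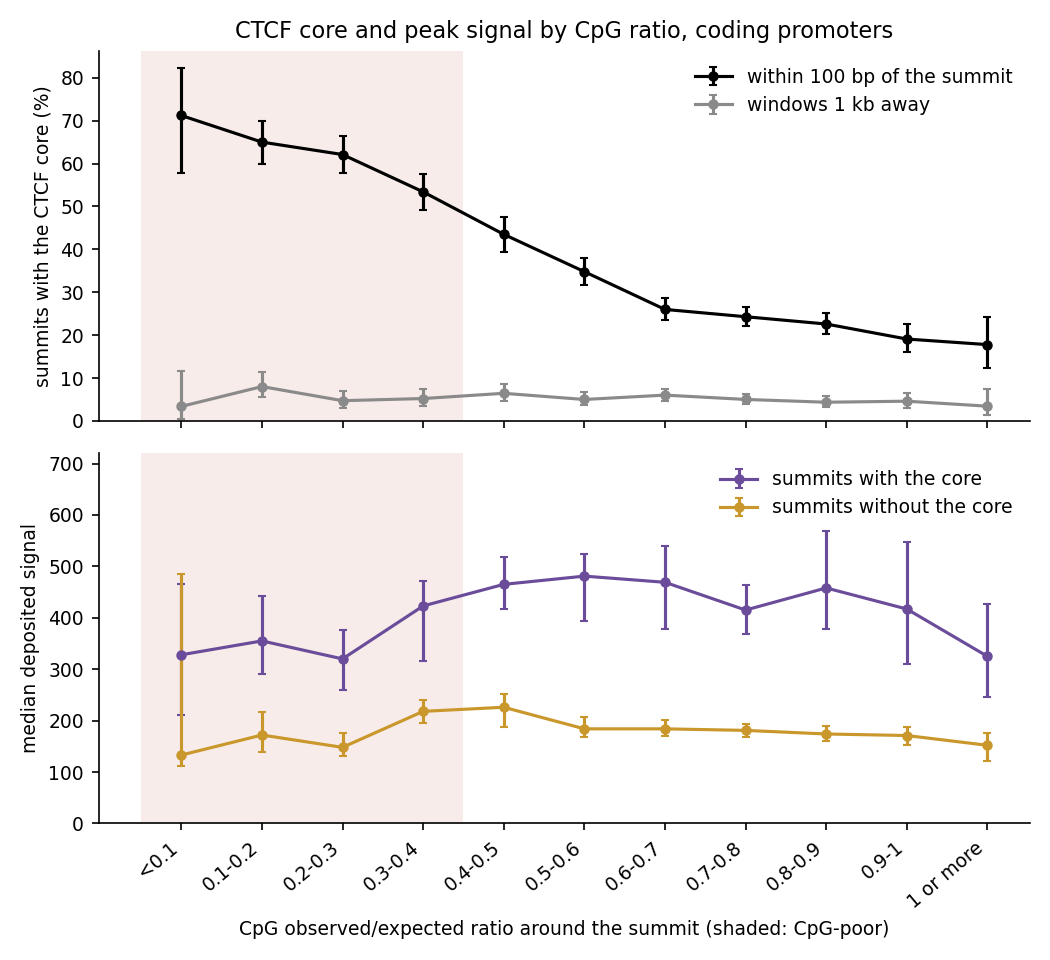
Share of coding-promoter summits with the CTCF core (top, percent, at the summit and in windows 1 kb away) and median deposited signal of summits with and without the core (bottom), by CpG ratio around the summit, with 95% intervals; CpG-poor bins are shaded. The core share at the summit goes down from 71.2% to 17.8% across the bins while the share 1 kb away stays between 3.39% and 8.02%.

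The difference was called in each of the 4 quartiles of signal. In the lowest signal quartile of coding-promoter summits, 41.1% of CpG-poor and 12.3% of other summits had the core. In the highest quartile, 77.1% of CpG-poor and 50% of other summits had it, a difference of 27.1 points (22.2 to 31.6). It also held near and far from the TSS. Within 250 bp of the TSS the shares were 47.0% and 23.8%, and beyond 250 bp they were 65.8% and 33%, CpG-poor summits given first in each pair. Core matches also lay closer to the summit at CpG-poor promoters, with a median distance of 7.50 bp from the summit to the centre of the core against 10.5 bp at the others, a difference of -3.00 bp (-4.41 to -2.00). The shares found 1 kb away, 5.69% and 5.15%, weigh more against the 27.0% of the others than against the 60.0% at CpG-poor summits. How far such background matches shape the distance was not tested.

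Matches to the core without any mismatch were found at 446 CpG-poor summits, 29.9% (27.5 to 32.2), and at 357 other summits, 5.89% (5.31 to 6.51). Part of these were copies of a single word that lies mostly in repeats. This word, ccagaagagggc, is shown because it made up 183 of the 446 exact cores at CpG-poor summits (41.0%), 94% of them soft-masked, and 63 of the 357 at other summits (17.6%). Its summits were weak, with a median signal of 175 (147 to 215) at CpG-poor and 259 (222 to 316) at other promoters. The other exact words had a median of 577 (514 to 624) at CpG-poor and 610 (564 to 654) at other promoters. With that word left aside, an exact core was still found at 263 CpG-poor summits, 17.6%, and at 294 other summits, 4.85%, a difference of 12.8 points (10.8 to 14.8).

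Among the commoner words outside repeats were 2 that are shown for their strength. The word ccactagagggc stood at 16 CpG-poor summits with a median signal of 705, and ccaccagagggc at 21 with a median of 690. Cores with 1 mismatch also differed in kind. A G in the third base of the core, which makes a CpG with the base before it, accounted for 26 of 450 such cores at CpG-poor summits (5.78%) and for 304 of 1281 at the others (23.7%). A CpG within the core is part of what the ratio counts, so this last contrast is tied to how the summits were chosen. The consensus has A in the third base. A core with that G therefore never counts as exact, and with another mismatch it is missed. A CpG lay in 6.03% of cores at CpG-poor and 33.5% at other summits. The differences in core share and in exact cores are thus not free of the rule, and how far it shapes them was not tested.

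Summits in soft-masked sequence were several times more frequent among CpG-poor promoters. They numbered 299 of 1494 (20.0%, 18 to 22.1) at CpG-poor and 235 of 6059 (3.88%, 3.41 to 4.40) at other promoters, a difference of 16.1 points (14.1 to 18.3). It was 8.41 points with promoters of 500 bp, 5.38 points within 250 bp of a TSS and 9.90 points among summits with at least the median signal. Among summits with the core the shares were 29.4% at CpG-poor and 7.39% at other promoters. By CpG ratio the soft-masked share went from 30.5% under 0.1 to 1.72% at 1 or more. The soft-masked share of promoter sequence in general was not measured in either class. Whether the contrast belongs to the summits or to the sequence that the rule takes was therefore not tested. The family of each repeat was not read, and no mappability track was used.

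The signal of the CpG-poor summits was slightly higher over all summits, and lower among summits with the core. The median was 252 (235 to 272) at CpG-poor and 224 (216 to 233) at other promoters, a difference of 0.17 on the log2 scale (0.05 to 0.30). It was not called with a ratio under 0.3, at 0.11 (-0.005 to 0.24), or more than 250 bp from a TSS, at 0.10 (-0.04 to 0.27), and was 0.41 outside repeats. The pool G medians were 138 at CpG-poor and 117 at other promoters, and the pool H medians were 121 and 102. Among summits with the core the order turned round, with 355 (318 to 402) at CpG-poor and 448 (420 to 471) at other promoters, a log2 difference of -0.34 (-0.51 to -0.13). Without the core the medians were 184 (158 to 207) at CpG-poor and 180 (174 to 187) at other promoters, and the log2 difference of 0.03 (-0.19 to 0.21) was not called. Core-bearing summits in repeats had medians of 191 at CpG-poor and 265 at other promoters. Outside repeats the values were 487 (444 to 528) at CpG-poor and 463 (440 to 492) at other promoters, where the difference had the opposite sign, 0.07, and was not called. With repeats included, the difference with the core was also not called within 250 bp of a TSS (-0.16), beyond 250 bp (-0.22) or with promoters of 500 bp (-0.25), and it was -0.20 in pool H, -0.18 with a ratio under 0.5 and -0.77 for exact cores, all 3 called.

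**Figure D2:**
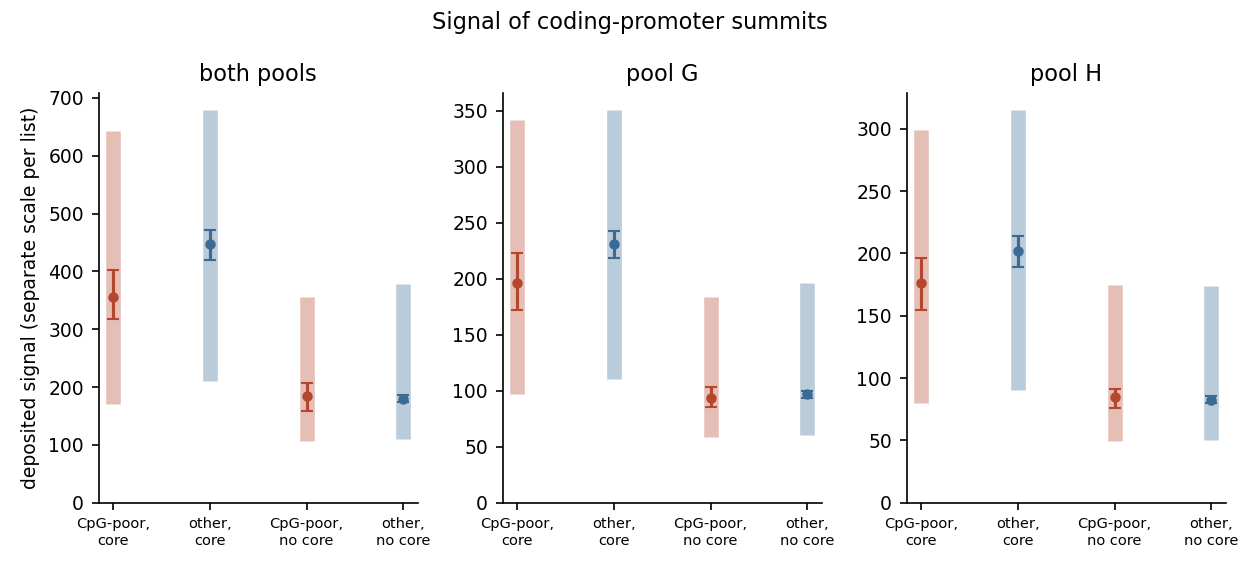
Deposited signal of coding-promoter summits with and without the CTCF core in the list of both pools and in each pool's own list (separate scales); thick bars run between the quartiles, points are medians with 95% intervals. With the core, CpG-poor medians (355, 196 and 176) lie below those of the other summits (448, 231 and 202), and without it the pairs nearly coincide.

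Pools G and H differed in scale by about the same factor at both kinds of summit. Where the matched calls of both pools lay within 100 bp of the summit (1471 of 1494 CpG-poor and 5874 of 6059 other summits), the median log2 ratio of pool G to pool H was 0.31 (SD 0.25) at CpG-poor and 0.32 (SD 0.31) at other promoters. Both single-pool lists overlapped 1258 CpG-poor summits (84.2%, 82.3 to 86.0) and 5037 of the others (83.1%, 82.2 to 84.1), and the difference of 1.07 points (-1.07 to 3.08) was not called. The strongest summits of both classes were found in both pool lists less often than the rest. At CpG-poor promoters this was 123 of 168 summits of the highest signal decile (73.2%) and 1135 of the other 1326 (85.6%). At other promoters it was 417 of 588 (70.9%) and 4620 of 5471 (84.4%). Of the 20 strongest CpG-poor summits, 8 lay in both pool lists and 3, at Lgi4, Top1mt and BB014433, in neither.

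Candidate peaks at CpG-poor promoters reached the final list less often over all candidates, but not among the strongest ones. In the authors' ranked list of all candidates, 1494 of 5129 CpG-poor candidates (29.1%) and 6059 of 17785 others (34.1%) passed an irreproducible discovery rate of 0.05, a difference of -4.94 points (-6.35 to -3.50), or -3.26 points with the first TSS of each gene. The gap was wider within each kind of sequence. With the core, 50.3% of CpG-poor and 63.7% of other candidates passed, and without it 17.9% of CpG-poor and 29.1% of the others did. Within the pools' own ranked lists the difference was -4.30 points in pool G and -1.72 points in pool H. Failing was not limited to weak candidates, since 9 of 177 CpG-poor candidates (5.08%) and 83 of 671 others (12.4%) with a signal in the range of that highest decile failed. Among these strong candidates the order turned round, with CpG-poor ones failing less often. With at least the median signal of the final coding-promoter summits, 9 of 815 CpG-poor candidates (1.10%) and 83 of 3054 others (2.72%) failed. These are the same 9 and 83 candidates, so every failure at or above the median was in the range of the highest decile. The turned order therefore comes from that decile alone.

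CpG-poor summits lay farther from the TSS. Their median distance was 512 bp (487 to 548), against 154 bp (145 to 161) for the other summits, a difference of 358 bp (332 to 395). With promoters of 500 bp the difference was 44 bp (28.5 to 66.4). Within 100 bp of the TSS lay 17% of CpG-poor and 37.3% of other summits, and beyond 500 bp lay 51.0% and 16.6%. In both classes the fullest 100 bp were those just upstream of the TSS, with 11.6% of CpG-poor and 21.7% of other summits. Away from the TSS the CpG-poor summits became more frequent again, with 7.63% between 900 and 800 bp upstream, where 1.07% of the others lay. The share with the core at CpG-poor promoters was lowest close to the TSS, at 44.5% in the 100 bp upstream and 43.2% in the 100 bp downstream, and highest, at 79.4%, between 600 and 500 bp upstream. Distance is bound up with the rule, since CpG islands are centred on TSSs and a summit far from one is more often outside an island.

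**Figure D3:**
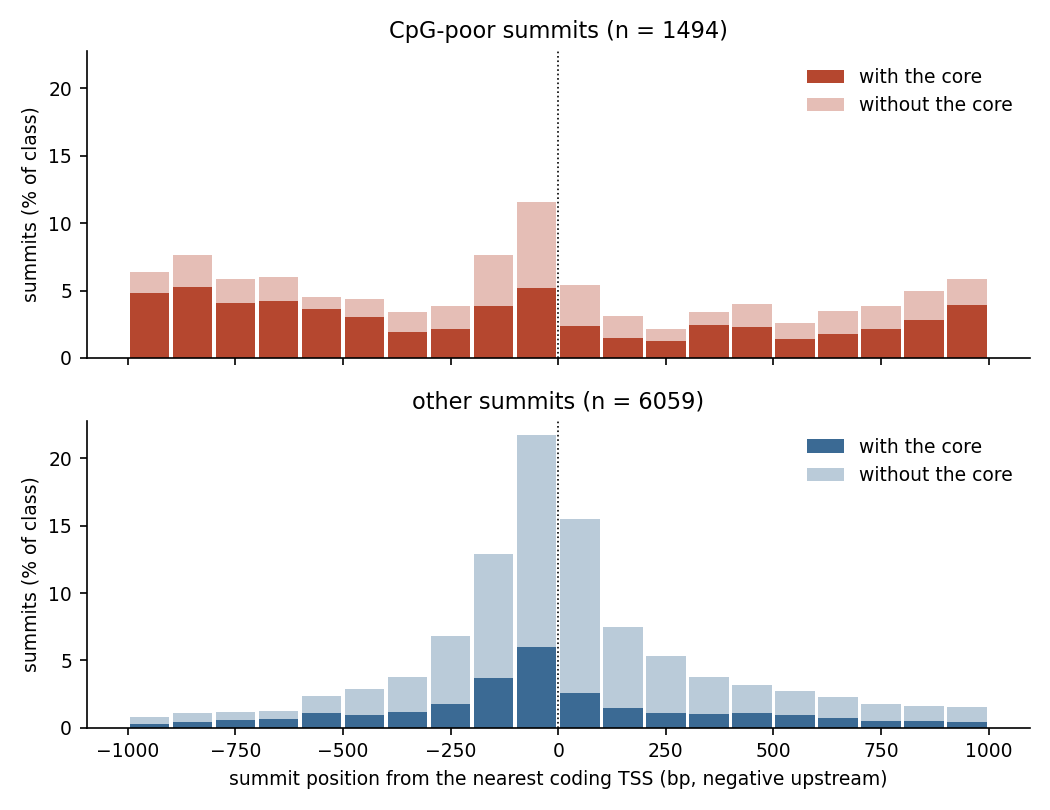
Position of summits relative to the nearest coding TSS in steps of 100 bp (x axis, negative upstream), as a percent of the 1494 CpG-poor summits (top) and of the 6059 other summits (bottom), split by presence of the CTCF core. Both classes peak just upstream of the TSS, at 11.6% and 21.7%, and CpG-poor summits spread to the ends of the window.

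Upstream positions were more common at CpG-poor (61.2%) than at other promoters (54.6%), a difference of 6.6 points (3.81 to 9.34), which was 11 points with basic transcripts and 19.7 points with the first TSS of each gene. CpG-poor summits were in introns in 50.6% of cases and the others in 26.4%, and in a 5′ untranslated region in 7.83% and 24.8%. Intergenic positions accounted for 27.0% of CpG-poor and 31.2% of other summits, and coding exons for 6.36% and 9.41%. The nearest TSS was more than 500 bp from the first TSS of its gene at 44.8% of CpG-poor and 16.2% of other summits, a difference of 28.6 points (25.9 to 31.3), which was 16.4 points with basic transcripts. The nearest TSS was itself CpG-poor at 1053 CpG-poor summits (70.5%) and at 95 others (1.57%), so the remaining CpG-poor summits stood in CpG-poor sequence near a TSS that was not.

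The core ran in the direction of the gene at 461 of 896 core-bearing CpG-poor summits, 51.5% (48.1 to 54.8), and at 937 of 1638 others, 57.2% (54.8 to 59.6). The difference was -5.75 points (-9.80 to -1.70) and -9.66 points for exact cores, and it was not called with the first TSS of each gene (-4.73); the CpG-poor share did not depart from an even split beyond its interval. The TATA word TATAAA, searched on the gene's strand only, with its first base 20 to 40 bp upstream of the nearest TSS, was found at 18 CpG-poor summits (1.2%) and 56 others (0.924%), and the difference of 0.281 points (-0.239 to 1.00) was not called. Among all annotated coding TSSs it was found at 2.73% of CpG-poor and 0.695% of the others, and at 1.54% in all. Summits with no other summit within 10 kb made up 32.6% of CpG-poor and 32.5% of other promoters, and the difference of 0.133 points (-2.48 to 2.82) was not called.

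Seen from the genes, a CpG-poor promoter was far less often bound. A summit lay within 1 kb of the first TSS at 547 of 7976 genes whose first TSS was CpG-poor (6.86%, 6.31 to 7.43) and at 5264 of 12746 other genes (41.3%, 40.4 to 42.2). The difference was -34.4 points (-35.5 to -33.4). Without the olfactory and vomeronasal receptor genes it was -33 points. The gap was narrower for summits with the core, found at 3.92% of CpG-poor and 12.8% of other genes, than for genes with only core-less summits, 2.93% and 28.5%. Occupancy went from 1.02% of genes with a ratio under 0.1 to 16.4% between 0.3 and 0.4, and was 46.7% between 0.9 and 1 and 44.9% at 1 or more. Expression of the genes was not measured in these data.

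**Figure D4:**
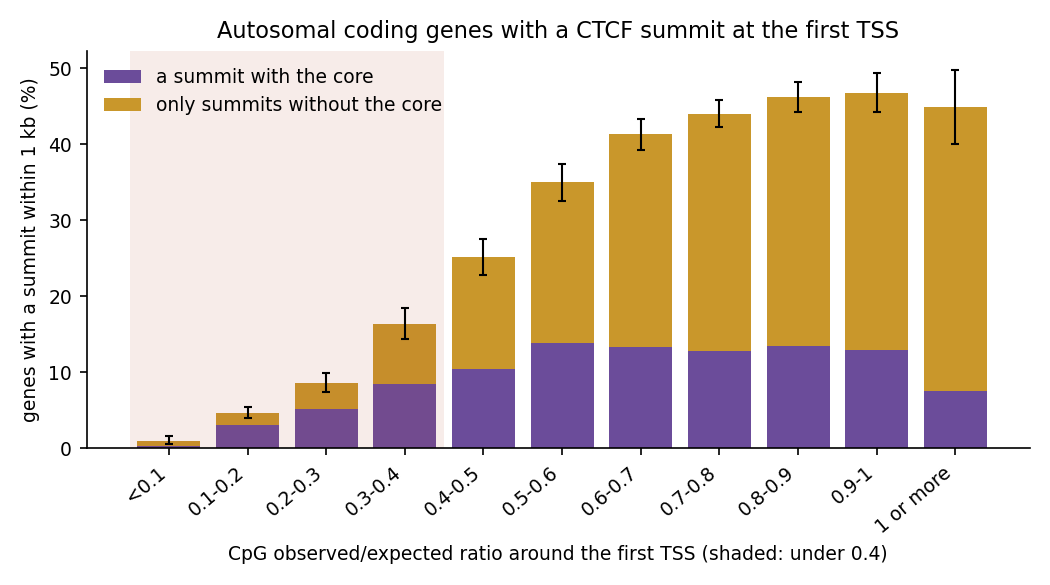
Percent of autosomal coding genes with a CTCF summit within 1 kb of the first TSS, by CpG ratio around that TSS (ratios under 0.4 shaded), split into genes with a core-bearing summit and genes with only core-less summits; error bars are 95% intervals of the total. The total goes from 1.02% to 46.7%, and from a ratio of 0.5 to 1 the core-bearing part stays between 12.8% and 13.8% while the core-less part grows.

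The 1494 summits were assigned to 1372 genes by their nearest TSS, 111 of which had several, and 360 of these genes also had another coding-promoter summit. Counting every TSS of a gene, 1405 of 20722 coding genes, 6.78%, had a CpG-poor summit, and 6671, 32.2%, had any coding-promoter summit. Lists of genes are read against these shares, and short lists have wide intervals.

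Of 22 sarcomere genes, 4 had a CpG-poor summit, 18.2% (5.19 to 40.3). Myl2, the regulatory light chain of ventricular myosin, had a signal of 673, with 370 in pool G and 306 in pool H. Ttn, the giant spring protein titin, had 624, with 321 in pool G and 304 in pool H. The Ttn summit lay in an intron, 248 bp upstream of the nearest TSS. Tnni3, cardiac troponin I, had 580, and Myom2, a protein of the M band, had 111. The first 3 had the core and Myom2 did not. Of 24 genes of skeletal muscle, 4 had one: Tnnt1 (797) and Tnnt3 (557), troponin T of slow and fast fibres, the light chain Mylpf (492) and the calcium buffer Pvalb (218). Tnnt1 lies next to Tnni3, and their summits at 4513428 and 4524413 on chromosome 7 are separate. The intervals of both lists hold the share over all genes.

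Genes of the other heart cell types had CpG-poor summits as well. Among 15 endothelial genes, 4 had one, 26.7% (7.79 to 55.1), the adhesion molecules Esam (545) and Icam2 (343), the clotting factor Vwf (253) and the TGF-beta co-receptor Eng (98.9). Pdgfra (542), a growth factor receptor of fibroblasts, and Col6a2 (536), a chain of collagen VI, were 2 of 16 fibroblast genes. Myh11 (637), the smooth muscle myosin heavy chain, and Smtn (142), smoothelin, were 2 of 13 smooth muscle and pericyte genes. Of 23 genes of calcium handling and excitation, Kcnq1 (188), a potassium channel, and Jph2 (128), which ties the cell membrane to the calcium store, had one. Cd36 (508), the fatty acid transporter, was the 1 of 23 in heart metabolism. In the immune list Itgal (625) and C1qa (230) were 2 of 32. The endothelial interval lies above 6.78%, but with the first TSS of each gene only, 2 of 15 had one, 13.3% (1.66 to 40.5), which holds the 3.89% of all genes counted in that way. It is 1 of 20 lists, and no adjustment was made. With first TSSs the counts also changed to 2 for the sarcomere genes and 1 each for calcium handling, fibroblasts and immune cells, and to 0 for heart metabolism; with pool G alone the fibroblast count was 1, and in the second list of both pools the heart metabolism count was 2.

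In lists of genes that heart does not typically use, Apob (767) and Itih1 (669), which encode secreted liver proteins, were 2 of 30 liver genes, while 0 of 25 digestive genes, 0 of 14 erythroid genes and 0 of 27 kallikreins had a CpG-poor summit. The intervals of these 4 lists hold 6.78%, with upper limits of 22.1%, 13.7%, 23.2% and 12.8%. With first TSSs the liver count was 1. Rbfox3, described above, was 1 of 19 neuronal genes, and the second list of both pools had 2. Among olfactory and vomeronasal receptors 11 of 1456 had one, 0.755% (0.378 to 1.35), although 99.7% of these genes had a CpG-poor first TSS. The strongest were Olfr557 (689) and Olfr556 (542), neighbours on chromosome 7. Keratins had 1 of 113, Krt222 (214), which is 0.885% (0.0224 to 4.83). Genes with the prefix Cyp, mostly cytochromes P450, had 7 of 102, led by Cyp2w1 (758) and Cyp21a1 (281), and the serpins had 4 of 60, led by Serpinb6b (761) and Serpinb9 (652), which lie 20 and 180 bp from their TSS. The receptor and keratin intervals lie below 6.78%. With first TSSs the receptors had 6 of 1456, 0.412% (0.151 to 0.895), still below the 3.89% of all genes, while the keratin interval, unchanged, held it. Both are large families of similar copies, and how well reads could be placed there was not tested.

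Of 96 genes with the prefixes Rpl and Rps, 6 (6.25%) had a CpG-poor summit and 41 (42.7%, 32.7 to 53.2) had any, an interval just above the 32.2% of all genes. However, only 9.38% of these genes had a CpG-poor first TSS, against 38.5% of all genes, and such genes had summits far less often. How far that makes up the excess was not tested, and no adjustment was made for the 20 lists. With first TSSs, 2 of the 96 had a CpG-poor summit. The strongest was Rpl3 (576), in an intron 341 bp upstream of the nearest TSS. The prefix also takes in Rps6ka5 (402), a kinase and no ribosomal protein. Of 49 proteasome genes, 3 (6.12%) had one, the assembly factors Psmg3 (389) and Psmg2 (214) and the ATPase subunit Psmc5 (320), and 22 (44.9%, 30.7 to 59.8) had any. Of 388 Zfp genes, 31 (7.99%, 5.49 to 11.1) had one. Among these 31, the 6 with summits on chromosome 17 between 21383504 and 21650122, Zfp677, Zfp54, Zfp51, Zfp52, Zfp948 and Zfp983, all had the core. Their signals were between 357 and 751. This row of genes was chosen after its values were seen, and Zfp genes of the stretch without a CpG-poor summit were not counted.

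**Figure D5:**
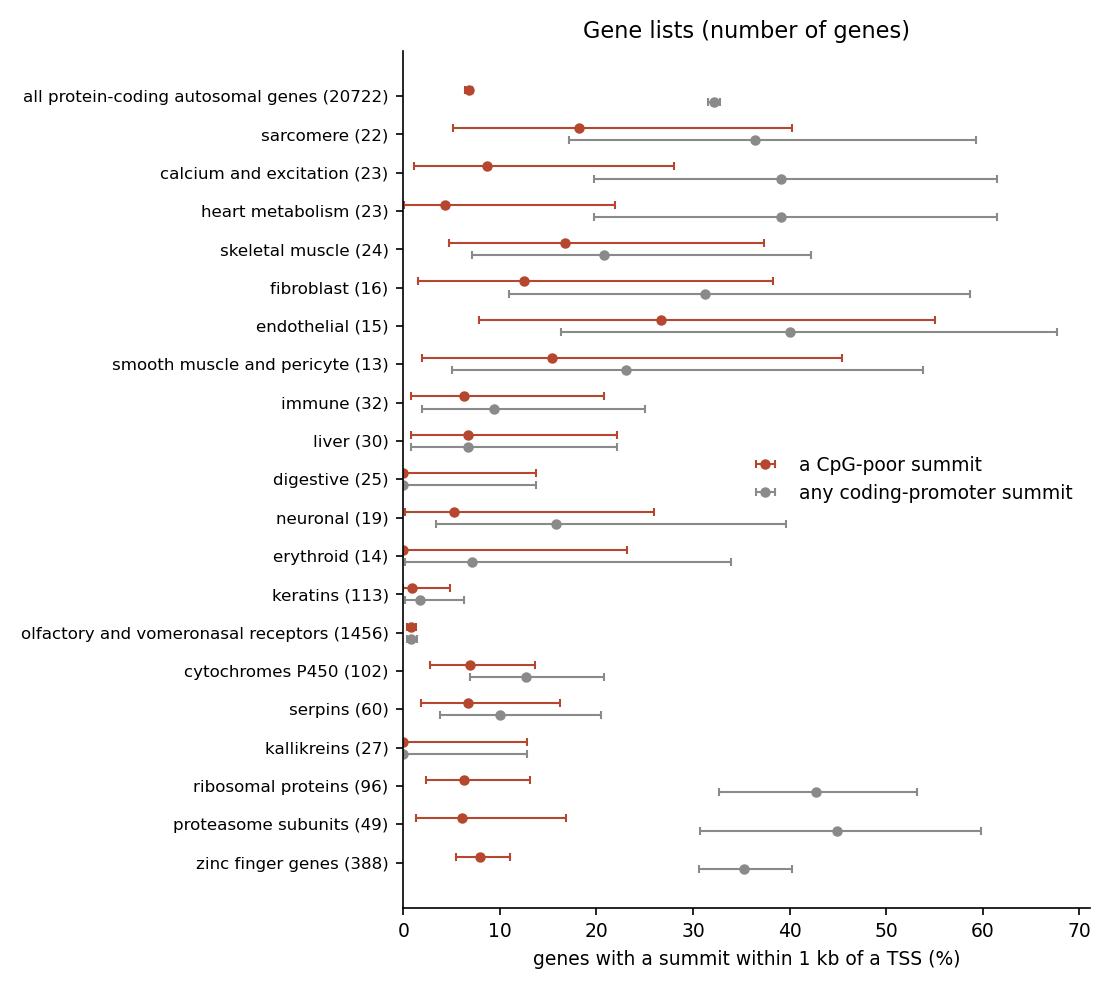
Percent of genes in each list with a CpG-poor summit and with any coding-promoter summit within 1 kb of a TSS, with exact 95% intervals and the number of genes in parentheses. The endothelial interval lies above the 6.78% of all genes and the keratin and receptor intervals below it; with first TSSs only the receptors stay apart from the share of all genes among these 3.

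A second row of genes chosen after its values were seen were the beta protocadherins on chromosome 18, neuronal adhesion proteins that share a conserved element in their promoters. Of 22 genes named Pcdhb with a number, 12 had a CpG-poor summit, and each of these 12 summits lay between 81 and 33 bp upstream of its TSS. Their signals were between 155 and 404, with a median of 240, and were between 93.6 and 230 in pool G and between 56.2 and 174 in pool H. All 12 were in both pool lists, and the core with up to 1 mismatch was found at 1. A further 7 genes had a summit with a ratio between 0.415 and 0.497, just above the threshold.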

How the data were processed

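The authors deposited peak lists of CTCF ChIP-seq from 2 pools; 7 of the 8 deposited lists were used, and a second ranked list of both pools was not. Software for alignment and peak calling was not given in the sources used here; coordinates are on mm10, per the labels. For each peak the authors deposited a signal score with no stated unit, which is compared within a list only, and a second score, the scaled irreproducible discovery rate (IDR), in which 540 stands for 0.05 and 830 for 0.01. The lowest scaled IDR among the CpG-poor summits was 540, and 94.4% of them had at least 830. In the ranked lists the authors also deposited the −log10 of the IDR, which was not used, and the signals of the matched calls of both pools. Which list came from which pool was read from the readme text of each sample; 0 columns of values per library were used.

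Sequence, with soft-masked bases in lower case, was read from GRCm38.p6 and TSSs from GENCODE M21 (52065 distinct coding TSS positions on autosomes). The summit is the start plus the offset, written 1-based. Shares have exact (Clopper-Pearson) intervals, differences of shares Newcombe intervals, and medians exact order-statistic intervals, combined by square-and-add. Each list is a single value per peak over pooled libraries, so no test over samples was made, and intervals cover counting error only. Genes were named by rule: the 20 strongest and 5 weakest CpG-poor summits, the 3 nearest the threshold on either side, and the 2 strongest of each of 20 gene lists; others from the lists are named for completeness. Results for some genes that this rule takes are withheld and not reported here. Members, lists and comparisons were chosen with earlier results of these data known. The scripts, in Python 3.11.15 with scipy 1.17.1, numpy 2.4.6, matplotlib 3.10.9 and pandas 2.3.3, were tested on simulated data. Alternatives were other CpG ratios and windows, promoter widths, TSS sets, core definitions, lists and signal ranges.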

Additional observations from a re-analysis of the deposited data

Results flagged for a closer look

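Chromosome X was not part of the comparisons. It held 35 CpG-poor summits of 163 at coding promoters, 18 of them with the CTCF core, with a median signal of 266. They are listed as a signal outside the autosomal data on which all comparisons rest; no control sample was analysed.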

How the results depend on the processing

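Of the 199 recomputed values that bear on a comparison, counting each result once under each alternative, 173 stayed on the same side, 12 changed sign, 7 were no longer called, 4 became called and 3 counts moved. The differences in core share, with and without the flank, soft-masked share, TSS distance, upstream share, threshold passing, alternative TSSs and gene occupancy kept direction and call under all alternatives tried, though some changed in size by over 1.5 times, as given with the results. Signal ranges were not among the alternatives for threshold passing, where the strongest candidates had the other order. The number of CpG-poor summits became 940 with a ratio under 0.3, 732 with promoters of 500 bp and 813 with the first TSS of each gene. The overall signal difference was no longer called with a ratio under 0.3 (0.109) or over 250 bp from a TSS (0.0958). The difference with the core was -0.248 with promoters of 500 bp, -0.156 within 250 bp of a TSS, -0.218 beyond it and -0.0454 with an exact core outside soft-masked sequence, none of them called, and 0.0733 outside soft-masked sequence. Without the core, where it was not called in the list of both pools, it was between -0.0541 and 0.0481 with either pool left out, -0.0613 in the second list of both pools, -0.244 with a ratio under 0.3, 0.134 (called) under 0.5 and -0.0543 with 250 bases either side of the summit for the CpG ratio. The difference in presence in both pool lists was called in the second list of both pools (2.42 points), with a ratio under 0.5 (2.81) and with an overlap of 50% (2.91), and was -0.236 for signals under the median. That in isolated summits was between -1.17 and 1.35 with either pool left out, -0.988 with a ratio under 0.5, -0.806 with 250 bases either side, -1.15 with first TSSs, -0.622 with 1 summit per interval and -0.433 at 50 kb. The strand difference was no longer called with first TSSs (-4.73). The cause of these changes was not tested. Counts in gene lists moved by over 1.5 times in 12 of 80 cases. The splits at 250 bp from a TSS, the exact core outside soft-masked sequence, the set of genes without receptors and the alternatives for gene lists were chosen after seeing the data. Depth per library is unknown, so it is not known how many weak sites were missed. No paired analysis was possible because the lists pool the technical libraries and hold no column for each of them.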

Other observations

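CpG-poor summits were unevenly spread over the autosomes, from 12.7% of coding-promoter summits on chromosome 18 to 27.5% on chromosome 7, where they numbered 165 of 600. The fullest stretch of 1 Mb on chromosome 7, between summits at 44818293 and 45720531, held 14 CpG-poor summits of 37 at coding promoters, near genes such as Prmt1, an arginine methyltransferase, Gys1, the glycogen synthase of muscle, and Dbp, a clock output factor. An equally full stretch on chromosome 10, between 79664230 and 80623783, held 14 of 36, near genes that include Polrmt, the mitochondrial RNA polymerase, and Atp5d, a subunit of ATP synthase. On chromosome 18, between 36529963 and 37513556, 13 of 40 summits were CpG-poor, 2 had the core and their median signal was 246; 12 of them were those of the beta protocadherins. On chromosome 15, between 75894637 and 76702198, 12 of 34 summits were CpG-poor, 10 had the core and their median signal was 461, near genes that include Plec, a cytoskeletal linker, and Cyc1, cytochrome c1. These stretches were chosen for their counts, so the counts are a description.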
